A study of Mus musculus with 338 samples.

Results

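DBA/2J mice, an inbred strain, were fed for 10 days either a diet high in fat and sugar (HFHS) or regular chow (RC), and RNA of their pancreatic islets was sequenced. The samples were chosen by label alone: 6 mice on HFHS (2HF115 to 2HF120) and 5 on RC (2RC103, 2RC104, 2RC105, 2RC107 and 2RC108), 11 libraries beside 327 others in a series on 6 strains, both diets and 4 time points (days 2, 10, 30 and 90). Each library came from 1 mouse and from at least 150 islets. The labels give no genetic change and no drug for these mice, and neither their age nor their sex is stated. All 11 libraries lay nearest to the DBA/2J mean over the 40 genes that best separated the strains in the other libraries.

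Islets hold insulin-secreting beta cells, glucagon-secreting alpha cells and smaller numbers of delta and PP cells. Fatty acids from a fat-rich diet are ligands of PPAR nuclear receptors, which raise genes of fatty acid oxidation such as Cpt1a. Cells also sense a shortage of amino acids or a load of unfolded protein through kinases that favour translation of the transcription factor ATF4, and ATF4 in turn raises aminoacyl-tRNA synthetases, amino acid transporters, enzymes of serine and asparagine synthesis, and the stress genes Trib3 and Chac1. Islets selected from a digested pancreas can carry exocrine acinar tissue and immune cells, and in bulk RNA fewer cells of a type and less RNA per cell cannot be told apart.

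The 11 libraries held 20528022 to 26920923 reads assigned to genes. The share of sequenced reads that was assigned to genes was 63.9% to 67.3% in HFHS libraries and 67.4% to 69.1% in RC libraries, so the groups did not overlap (exact permutation test, two-sided, p = 0.00433 over 462 arrangements). The part of this share in the results below was not tested. No library had a strong dependence of counts on gene GC content, with slopes between -0.01 and 0.16 log2 per 10 GC points. Ins1 and Ins2 together took 18.8% to 29.8% of assigned reads in HFHS islets and 18.9% to 23.4% in RC islets. 3 libraries stood apart: 2HF117 and 2HF119 had the highest insulin shares (29.8% and 26.97%) and lay apart on the first principal component, which carried 36.2% of the variance, and 2RC103 lay apart on the second, which carried 23.6%.

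Marker genes of other cell types differed between mice, and the acinar sums had a higher median on HFHS. The 28 acinar markers (digestive enzymes such as Cel and Pnliprp1) summed to 1880 to 8552 CPM (counts per 1000000 assigned reads) in HFHS islets, with a median of 6499.7, against 2195, 4058, 667, 2782 and 2359 CPM in RC islets. Of the 6 HFHS libraries 4, all but 2HF118 and 2HF120, lay above every RC library. The difference in the log2 sum was 1.34 (exact permutation test, two-sided, p = 0.0346, adjusted over the 12 marker lists p = 0.372). Lymphocyte markers summed to 9.55 to 63.0 CPM in HFHS islets (median 31.3), against 163, 11.1, 11.7, 16.01 and 77.6 CPM in RC islets, so that 2RC103 and 2RC108 were the highest of the 11. Macrophage markers were highest in 2RC103 as well, at 349 CPM against 110.2 to 230.2 CPM in the other 10 libraries. Of the 8 adipocyte markers, 2 had no read in any library. For the main gene groups below, counts are also given with an acinar covariate, added as 1 term to the fit. This covariate was the mean log2 CPM over the acinar markers, in which each marker weighs alike, and not their sum. Counts are given without 2HF117 and 2HF119 as well, a choice made after seeing the data.

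**Figure D1:**
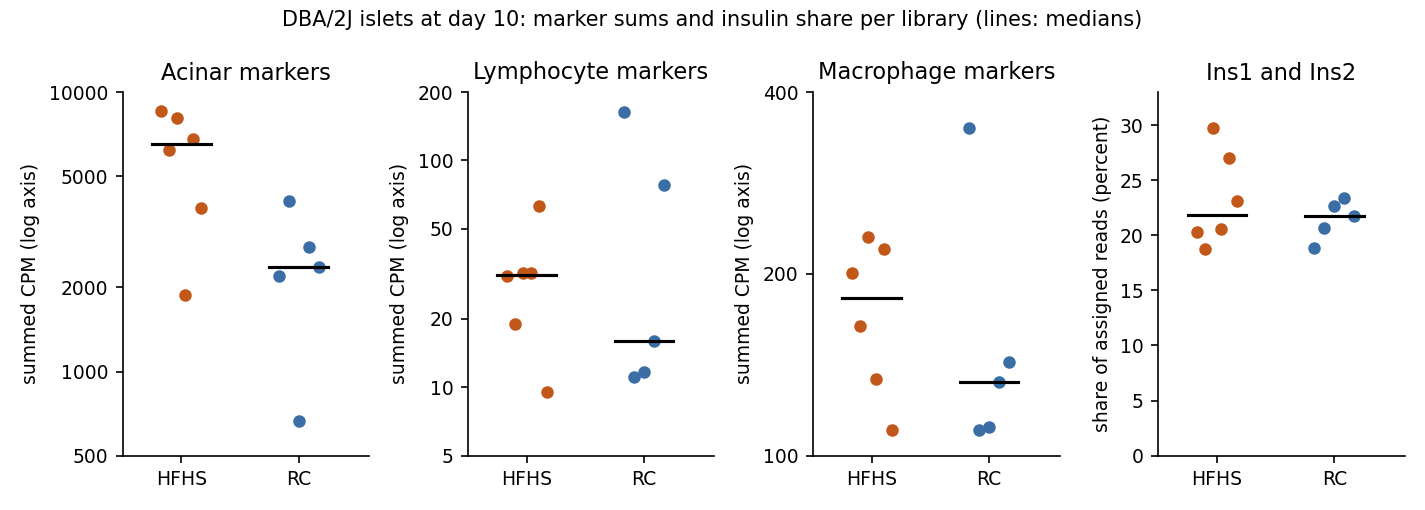
Summed CPM of acinar, lymphocyte and macrophage markers (log axes) and the share of assigned reads from Ins1 and Ins2 (percent), for each HFHS (orange) and RC (blue) library of DBA/2J at day 10, with a line at each median. Acinar sums run from 1880 to 8552 CPM in HFHS islets and from 667 to 4058 CPM in RC islets, and 2RC103 is the highest point of the lymphocyte and macrophage panels.

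Which genes changed after 10 days on the diet was tested over 14454 genes. At an adjusted p under 0.05 (edgeR's quasi-likelihood test, Benjamini-Hochberg adjustment), 1 gene was called, 0.00692% of those tested. That gene was Rpl7a, which encodes a protein of the large ribosomal subunit. Rpl7a stood at 6.27, 4.97, 3.46, 3.14, 3.47 and 3.46 CPM in HFHS islets, against 11.6, 10.8, 10.6, 9.66 and 11.7 CPM in RC islets. Every HFHS library was below every RC library, and the gap between the groups was wider than the range within either. Rpl7a averaged 4.13 ± 1.23 CPM in HFHS islets, against 10.9 ± 0.834 CPM in RC islets (SD, n = 6 and 5), a log2 fold change of -1.32 (SE 0.14, adjusted p = 0.00835). The call was lost without 2RC108 (adjusted p = 0.0508), without 2RC103 and 2RC108 (adjusted p = 0.233) and without 2HF117, 2HF119 and 2RC103 (adjusted p = 0.0735), while the log2 fold change stayed between -1.46 and -1.25 with any 1 library left out. With the acinar covariate it was -1.54 (adjusted p = 0.0246). The call was also lost in fits that took the spread from all day 10 libraries (adjusted p = 0.37) or from all libraries of the series (adjusted p = 0.487).

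The other genes of ribosomal proteins did not share this direction. Of 73 others tested, 9 had an unadjusted p under 0.05 with higher values on HFHS and 0 with lower values, beside 4.62% of all 14454 genes with higher and 4.05% with lower values at that level. Their median log2 fold change was 0.19. With the acinar covariate 3 were higher, beside 2.18% of all genes, and the median was 0.07. Without 2HF117 and 2HF119 4 were higher and 2 lower, beside 4.87% and 3.99% of all genes, with a median of -0.01. Ribosomal protein genes have processed pseudogenes, near-identical copies elsewhere in the genome, and how reads that fit several copies were counted is not given in the sources used here. The Rpl7a counts are therefore uncertain as a measure of that gene alone. In the other 46 groups of the series the median of Rpl7a lay between 1.96 and 9.90 CPM, so the RC islets of DBA/2J at day 10 had the highest median of all 48 groups, at 10.8 CPM. The median of the HFHS islets of DBA/2J at day 10, 3.47 CPM, lay inside the range of the other groups. HFHS had the higher median in 12 of the other 23 pairs of groups and the lower one in 11.

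**Figure D2:**
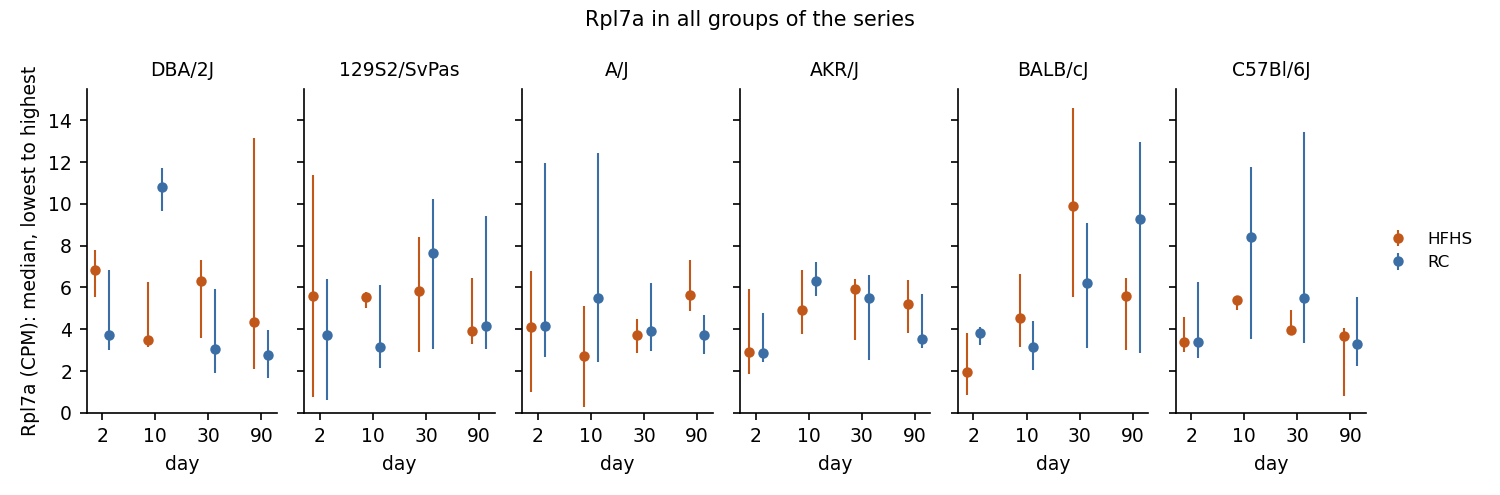
Rpl7a in CPM by day of diet in each strain, HFHS in orange and RC in blue; points are medians and lines run from the lowest to the highest library of a group. DBA/2J at day 10 has 3.14 to 6.27 CPM on HFHS and 9.66 to 11.7 CPM on RC, and HFHS lies above RC in DBA/2J on days 2, 30 and 90.

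Within DBA/2J, the Rpl7a difference had this sign at day 10 alone of the 4 time points. The log2 fold change, HFHS over RC, was 0.57 (SE 0.17) at day 2, -1.32 (SE 0.14) at day 10, 0.92 (SE 0.19) at day 30 and 1.18 (SE 0.35) at day 90. The difference between the day 10 and the day 2 effect was -1.90 (SE 0.24, edgeR adjusted p = 0.000733 over 14882 genes), and Rpl7a was the only gene called in that test (0.00672% of those tested). At an unadjusted p under 0.05 the same test held 876 genes (5.89%), 505 with a higher effect at day 10 (3.39%) and 371 with a lower one (2.49%). The call of Rpl7a was lost in a fit over all libraries of the series (adjusted p = 0.112). Against the mean of the other 5 strains at day 10 the difference was -1.12 (SE 0.35, adjusted p = 0.424). It was -1.08 (SE 0.25, edgeR adjusted p = 0.033) in an alternative given below, chosen after seeing the data. That fit left out 6 libraries of the other strains whose counts depended strongly on GC content. The other strains had log2 fold changes from -1.20 in A/J to 0.67 in BALB/cJ, and the 6 libraries were all from these strains. At days 30 and 90 the RC libraries of DBA/2J had counts that depended on GC content in a way the HFHS libraries mostly did not (median slopes 0.13 on HFHS and -0.40 on RC at day 30, and 0.17 on HFHS and -1.02 on RC at day 90). The part of this in the values of those days was not tested.

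At a weaker level, 1253 genes (8.67%) had an unadjusted p under 0.05: 668 with higher values on HFHS (4.62%) and 585 with lower values (4.05%). The number was 790 without 2RC104. In 199 genes (1.38%) the 6 HFHS libraries and the 5 RC libraries did not overlap after TMM scaling, with HFHS above RC in 91 (0.63%) and below RC in the rest (0.747%). DESeq2's Wald test on the same libraries called 68 of the 13499 genes for which it gave an adjusted p (0.504%), 32 higher (0.237%) and 36 lower (0.267%) on HFHS. So the number of genes called depended on the tool, and the genes below are described by their values. Except for those in the lists named, they were picked after their values were seen.

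The genes with the smallest p after Rpl7a included a hormone-like peptide, a potassium channel subunit and a peroxidase. Edn3, a vasoactive peptide of the endothelin family, ranged from 37.8 to 52.8 CPM in HFHS islets (median 42.5), against 34.9, 32.3, 35.3, 28.01 and 28.2 CPM in RC islets. This was a log2 fold change of 0.53 (SE 0.08, unadjusted p = 3.1e-05, adjusted p = 0.169). Kcna2, a voltage-gated potassium channel subunit, ranged from 8.03 to 15.3 CPM in HFHS islets (median 12.3), against 23.3, 22.4, 19.5, 18.3 and 20.5 CPM in RC islets, with a log2 fold change of -0.69 (SE 0.12, unadjusted p = 8.59e-05, adjusted p = 0.177). Neither gene overlapped between the diets: Edn3 was higher and Kcna2 lower in every HFHS library than in any RC library.

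Gpx2, a glutathione peroxidase that reduces hydroperoxides, ranged from 12.5 to 16.03 CPM in HFHS islets (median 14.2), against 7.32, 8.23, 10.5, 8.99 and 8.80 CPM in RC islets, with a log2 fold change of 0.76 (SE 0.13, unadjusted p = 7e-05, adjusted p = 0.169). The count table also holds a pseudogene, Gpx2-ps1, so reads could be split between the copies. Nedd9, a scaffold protein of cell adhesion and motility, ranged from 16.7 to 22.5 CPM in HFHS islets (median 20.6), against 30.6, 25.2, 25.6, 24.5 and 27.9 CPM in RC islets, with a log2 fold change of -0.36 (SE 0.06, unadjusted p = 7.01e-05, adjusted p = 0.169). Both separated the diets completely. Gpx2 was the 1 of 23 antioxidant genes tested with an unadjusted p under 0.05, where 8.67% of all genes had one. The list's median log2 fold change was 0.00.

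**Figure D3:**
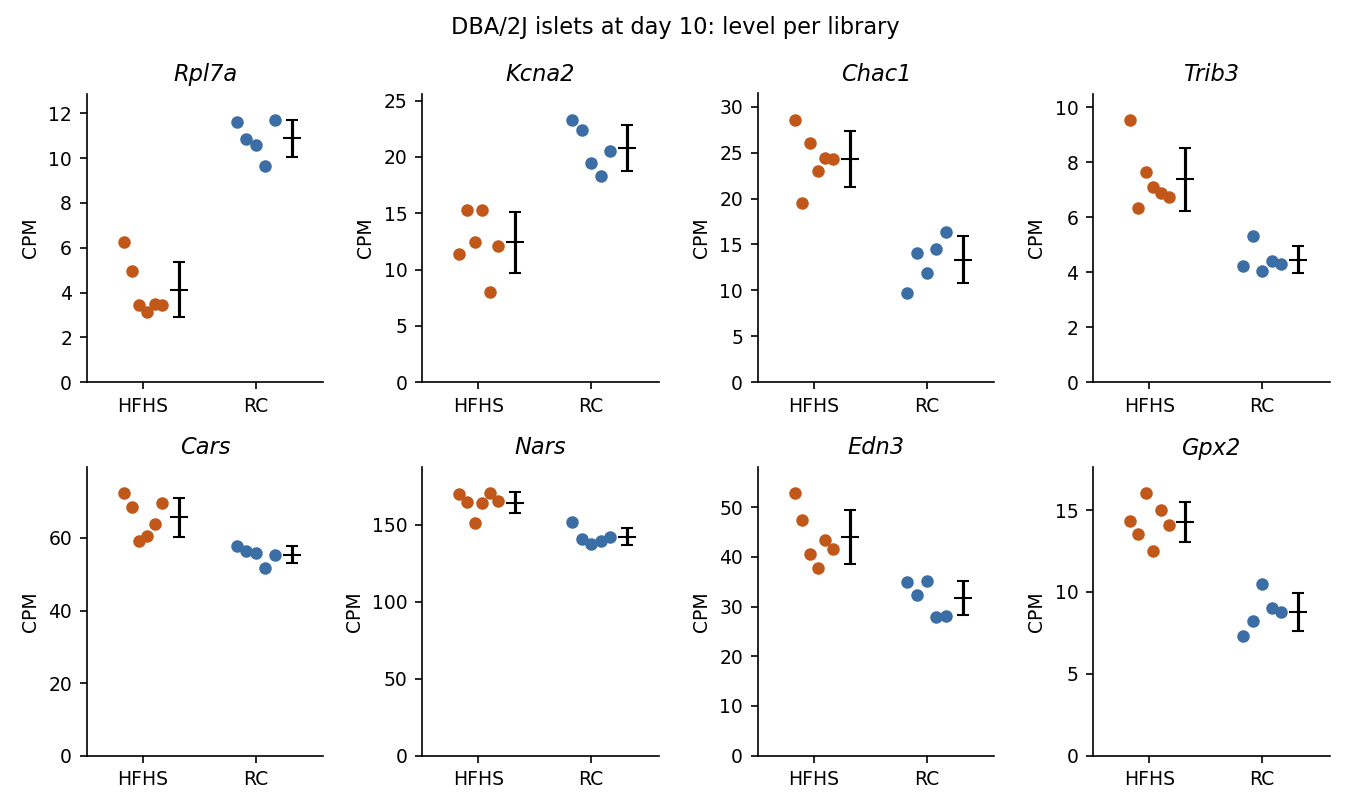
CPM of 8 genes in each DBA/2J library at day 10, HFHS (orange) left of RC (blue), with the mean and SD of each group in black. Rpl7a and Kcna2 are lower on HFHS, while Chac1, Trib3, Cars, Nars, Edn3 and Gpx2 have higher means on HFHS; after TMM scaling none of the 8 overlaps between the diets.

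Many genes of the amino acid response had higher values on HFHS at the unadjusted level, and none passed the adjusted threshold. Of 30 such genes 15 had an unadjusted p under 0.05 with higher values on HFHS and 1 with lower values, where 4.62% of all genes were higher and 4.05% lower at that level. Their median log2 fold change was 0.19, against 0.00 over all 14454 genes. Of the 20 cytosolic aminoacyl-tRNA synthetases, which load amino acids onto tRNAs, 11 were higher and 0 lower at that level, with a median of 0.15. Both lists were put together after the values had been seen, so these counts describe the genes and test nothing.

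Among the stress genes of this response, Chac1, which degrades glutathione, ranged from 19.5 to 28.6 CPM in HFHS islets (median 24.4), against 9.75, 14.1, 11.9, 14.5 and 16.4 CPM in RC islets. The 6 HFHS libraries all lay above the 5 RC libraries, with a log2 fold change of 0.92 (SE 0.16, unadjusted p = 6.32e-05, adjusted p = 0.169). Trib3, a pseudokinase induced by stress, ranged from 6.34 to 9.54 CPM in HFHS islets (median 6.99), against 4.23, 5.31, 4.04, 4.42 and 4.29 CPM in RC islets. It too separated the diets, with a log2 fold change of 0.78 (SE 0.13, unadjusted p = 4.54e-05, adjusted p = 0.169). Nupr1, a small stress-induced chromatin protein, ranged from 36.6 to 65.1 CPM in HFHS islets (median 44.8), against 28.2, 33.1, 31.99, 26.3 and 29.7 CPM in RC islets, with a log2 fold change of 0.73 (SE 0.17, unadjusted p = 0.00106, adjusted p = 0.353). DESeq2 gave these 3 genes adjusted p-values of 5.34e-05, 9.7e-05 and 0.0152. Atf4 itself had a log2 fold change of 0.21 (SE 0.17, edgeR unadjusted p = 0.242).

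The synthetases differed by smaller folds. Cars, the cysteinyl-tRNA synthetase, ranged from 59.1 to 72.3 CPM in HFHS islets (median 66.3), against 57.7, 56.4, 55.9, 51.6 and 55.3 CPM in RC islets, with a log2 fold change of 0.31 (SE 0.06, unadjusted p = 0.000126, adjusted p = 0.228). Nars, the asparaginyl-tRNA synthetase, ranged from 151.4 to 170.5 CPM in HFHS islets (median 165), against 152.1, 140.98, 137.5, 139.1 and 142.1 CPM in RC islets, with a log2 fold change of 0.27 (SE 0.06, unadjusted p = 0.000357, adjusted p = 0.258). In CPM the lowest HFHS value of Nars (151.4 CPM, in 2HF117) was just below the highest RC value (152.1 CPM, in 2RC103), and after TMM scaling the diets did not overlap. Aars and Tars, which charge alanine and threonine, also did not overlap after TMM scaling, with log2 fold changes of 0.22 (SE 0.06) and 0.23 (SE 0.06). Yars, for tyrosine, had 0.25 (SE 0.06). The lowest of the 20 were Wars, for tryptophan, and Eprs, for glutamate and proline, at -0.07 (SE 0.05) and -0.02 (SE 0.06).

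Transporters and biosynthetic enzymes mostly had higher values on HFHS as well. Slc1a4, which carries neutral amino acids, ranged from 21.04 to 25.4 CPM in HFHS islets (median 22.8), against 22.4, 20.8, 18.3, 19.7 and 16.6 CPM in RC islets, with a log2 fold change of 0.30 (SE 0.07, unadjusted p = 0.00123, adjusted p = 0.353). The diets overlapped in CPM and did not after TMM scaling. Slc38a5, which carries glutamine and other amino acids, ranged from 15.49 to 24.3 CPM in HFHS islets (median 21.7), against 14.9, 14.4, 13.95, 15.01 and 20.2 CPM in RC islets, with a log2 fold change of 0.48 (SE 0.15, unadjusted p = 0.00878, adjusted p = 0.464), and 2RC108 lay inside the HFHS range. The serine synthesis enzymes Psat1 and Psph had log2 fold changes of 0.35 (SE 0.13) and 0.30 (SE 0.11), the mitochondrial folate enzyme Mthfd2 had 0.30 (SE 0.09), and asparagine synthetase, Asns, had 0.21 (SE 0.09). Cth, which makes cysteine from cystathionine, was the 1 member lower at that level, at -0.55 (SE 0.23). Among genes of translation, Eif4ebp1, which restrains cap-dependent initiation, had a log2 fold change of 0.52 (SE 0.13), and Eif4a1, an RNA helicase of initiation, 0.36 (SE 0.07).

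**Figure D4:**
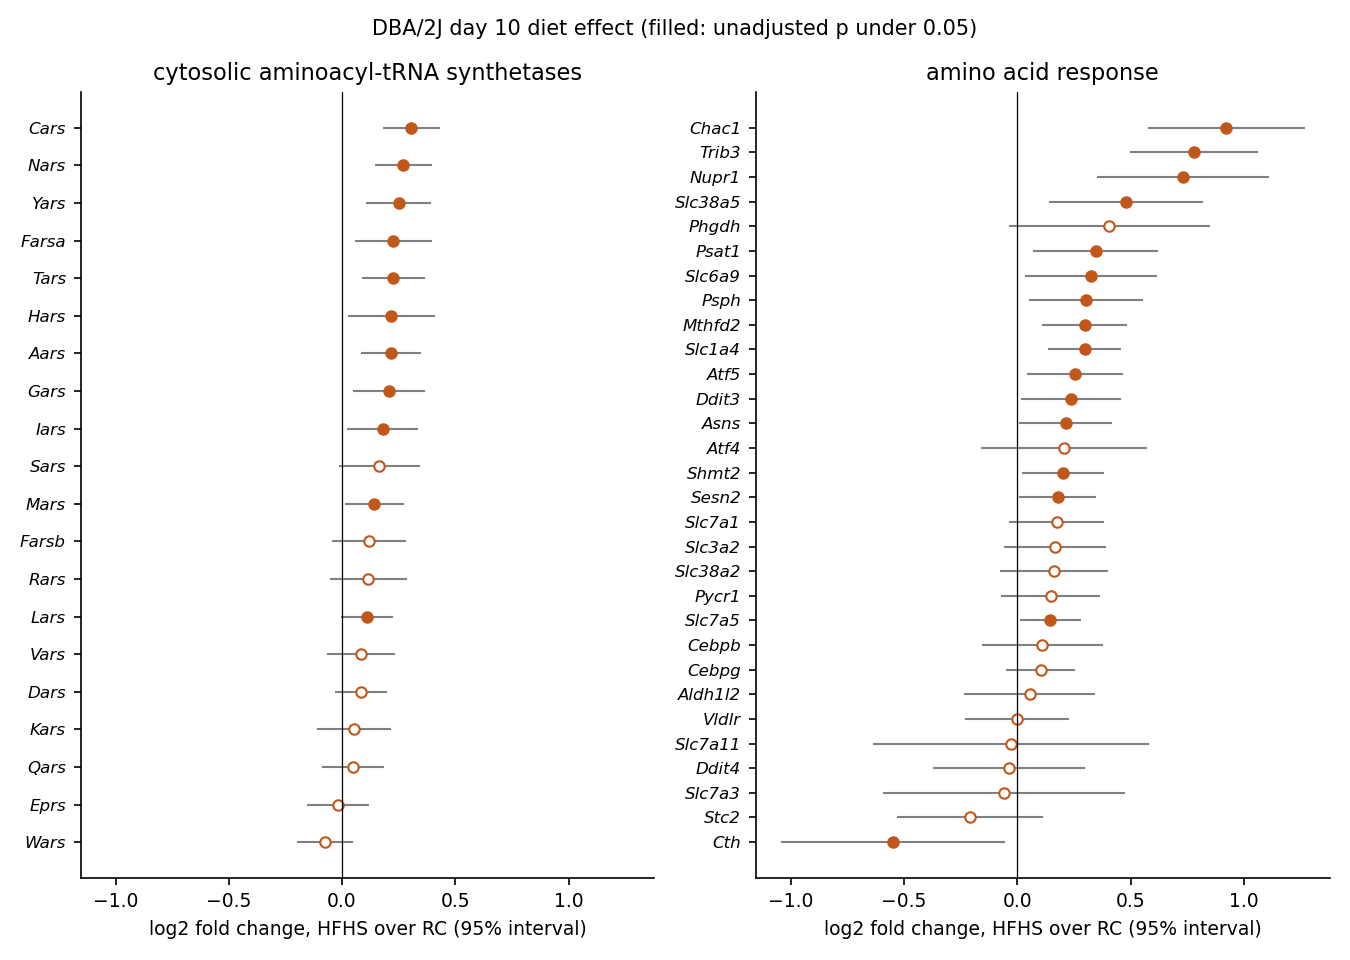
Log2 fold change, HFHS over RC, of 20 cytosolic aminoacyl-tRNA synthetases (left) and 30 amino acid response genes (right) in DBA/2J islets at day 10, with 95% intervals; filled points have an unadjusted p under 0.05. On the left 18 of 20 points lie above 0, and on the right 24 of 30, from -0.55 for Cth to 0.92 for Chac1.

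With the acinar list as a covariate, 7 of the 20 synthetases and 6 of the 30 response genes had an unadjusted p under 0.05 with higher values on HFHS, where 2.18% of all genes did. Their medians were then 0.12 and 0.16. Of the response genes 1 was lower at that level, Cth, at -0.92 (unadjusted p = 0.00663), where 1.65% of all genes were lower. The log2 fold change of Chac1 was 0.78, of Trib3 0.62, of Cars 0.27, of Nars 0.25 and of Slc38a5 0.46 in that fit. Nupr1 was at 0.54 (unadjusted p = 0.0316) and Eif4ebp1 at 0.37 (unadjusted p = 0.0387) in the same fit. The log2 fold change of Psph was 0.15 (unadjusted p = 0.294), that of Psat1 0.20 (unadjusted p = 0.216) and that of Asns 0.14 (unadjusted p = 0.274). Without 2HF117 and 2HF119, 6 synthetases were higher and 0 lower and 9 response genes were higher and 1 lower at that level, where 4.87% of all genes were higher and 3.99% lower. The medians were then 0.08 and 0.13. The log2 fold change was 0.48 for Nupr1, 0.32 for Slc38a5, 0.33 for Eif4ebp1, 0.17 for Psat1, 0.17 for Psph and 0.088 for Asns without these libraries, and leaving out 2HF117 alone put Asns at 0.14.

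The promoters of the response genes are shown because several hold the letters TGATGNAA, the core of the composite element bound by C/EBP and ATF4 dimers, marked in capitals here on either strand (TTNCATCA where the element is on the opposite strand). The sequences run 5′ to 3′ along the gene from 250 bases before its start to 50 after it, and come from RefSeq on GRCm38.p6. The 4 genes given did not overlap between the diets after TMM scaling.
Chac1, chr2:119350992-119351291, plus strand: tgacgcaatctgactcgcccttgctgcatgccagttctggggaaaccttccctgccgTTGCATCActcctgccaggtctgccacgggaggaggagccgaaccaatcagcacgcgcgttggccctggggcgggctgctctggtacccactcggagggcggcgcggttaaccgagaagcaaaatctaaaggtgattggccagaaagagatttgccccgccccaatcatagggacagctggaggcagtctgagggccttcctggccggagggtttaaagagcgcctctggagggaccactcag
Trib3, chr2:152344011-152344310, minus strand: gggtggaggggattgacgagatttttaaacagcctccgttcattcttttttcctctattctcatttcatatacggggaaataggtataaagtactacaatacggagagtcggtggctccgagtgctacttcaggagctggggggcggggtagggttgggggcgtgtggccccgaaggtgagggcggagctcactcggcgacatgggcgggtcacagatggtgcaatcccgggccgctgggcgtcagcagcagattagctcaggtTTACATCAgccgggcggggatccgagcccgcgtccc
Slc1a4, chr11:20332664-20332963, minus strand: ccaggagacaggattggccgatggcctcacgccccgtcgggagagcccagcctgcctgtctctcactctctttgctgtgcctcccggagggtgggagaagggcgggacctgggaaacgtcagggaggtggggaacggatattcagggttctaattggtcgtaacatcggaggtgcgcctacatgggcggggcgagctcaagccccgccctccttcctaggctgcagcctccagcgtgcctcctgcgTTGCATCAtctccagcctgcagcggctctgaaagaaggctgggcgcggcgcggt
Tars, chr15:11399609-11399908, minus strand: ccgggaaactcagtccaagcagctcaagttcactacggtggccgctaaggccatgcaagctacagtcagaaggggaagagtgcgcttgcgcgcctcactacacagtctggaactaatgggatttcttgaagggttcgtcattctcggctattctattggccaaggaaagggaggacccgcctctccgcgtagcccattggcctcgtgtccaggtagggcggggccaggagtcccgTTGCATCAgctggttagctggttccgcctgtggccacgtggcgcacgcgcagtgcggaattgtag

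In Chac1 the match begins 193 bases before the start and in Trib3 14 bases after it. In Slc1a4 and Tars it begins 4 and 15 bases before the start. Of the 50 genes in both lists 38 had an entry in the table under the symbol of the count table, and 13 of these (34.2%) held a match. The share was 3.97% over all 32851 promoters of the table and 2.88% over the 10261 tested genes with an entry. Of the 20 members with an unadjusted p under 0.05 and higher values on HFHS, 10 held a match, and of the 18 other members 3 did. The lists hold genes of the kinds that ATF4 raises and were put together after their values were seen. These shares, and the split by p, therefore test nothing. A match describes letters in this window and shows no binding.

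Genes of fatty acid oxidation and PPAR targets mostly had higher values on HFHS. Of 33 tested, 10 had an unadjusted p under 0.05 with higher values and 1 with lower values, beside 4.62% and 4.05% of all genes. In all, 27 had a log2 fold change above 0, and the median was 0.13. With the acinar covariate 2 were higher at that level, beside 2.18% of all genes, and the median was 0.07. Without 2HF117 and 2HF119, 3 were higher, beside 4.87% of all genes, and 20 were above 0, with a median of 0.03. Cpt1a, which admits long-chain fatty acids into mitochondria, ranged from 55.0 to 93.6 CPM in HFHS islets (median 76.8), against 57.2, 70.4, 61.0, 50.1 and 69.8 CPM in RC islets, and the diets overlapped. This was a log2 fold change of 0.32 (SE 0.11, unadjusted p = 0.00896, adjusted p = 0.464). Acadvl, a dehydrogenase of very long fatty acyl chains, had a log2 fold change of 0.32 (SE 0.08), Slc25a20, the carnitine carrier, 0.22 (SE 0.08), or 0.13 with the acinar covariate, and Fabp4, a fatty acid binding protein, 0.57 (SE 0.18), or 0.30 with the acinar covariate. Pdk4, which turns pyruvate away from oxidation, ranged from 43.8 to 127.6 CPM in HFHS islets (median 56.4), against 44.9, 64.1, 56.0, 34.8 and 41.9 CPM in RC islets, and its log2 fold change of 0.55 (SE 0.23) was 0.31 without 2HF115, the highest library, and 0.37 with the acinar covariate. Without 2HF117 and 2HF119 the log2 fold change of Slc25a20 was 0.13 and that of Acadvl 0.21. Angptl4, a secreted inhibitor of lipoprotein lipase, had 0.85 (SE 0.39), or 0.29 with the acinar covariate. Ppara, the PPAR receptor that oxidation genes answer to, was the 1 lower at that level, at -0.62 (SE 0.26).

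Genes that lengthen and desaturate fatty acids had lower values where they differed. Of 13 tested, 4 had an unadjusted p under 0.05 with lower values on HFHS and 0 with higher values, beside 4.05% and 4.62% of all genes. With the acinar covariate 2 were lower at that level (1.65% of all genes). Without 2HF117 and 2HF119 3 were lower (3.99% of all genes). Scd1, the delta-9 desaturase, ranged from 10.3 to 14.7 CPM in HFHS islets (median 14.1), against 37.95, 18.98, 13.4, 16.05 and 19.1 CPM in RC islets, with a log2 fold change of -0.59 (SE 0.20, unadjusted p = 0.0122, adjusted p = 0.47). 2RC103 held the highest Scd1 value by far, and without it the log2 fold change was -0.31. The other 3 were Elovl4 at -0.53 (SE 0.18), Fads1 at -0.17 (SE 0.06) and Elovl5 at -0.14 (SE 0.05). Elovl2, an elongase of polyunsaturated fatty acids, had 0.04 (SE 0.07). In fatty acid synthesis 1 of 16 was higher and 1 lower at that level, and in cholesterol synthesis 1 of 25 each way. The shares of all genes, 4.62% higher and 4.05% lower, stand beside these counts as well.

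Hormone genes and markers of islet cells did not pass the adjusted threshold. Ins1 and Ins2 had log2 fold changes of 0.16 (SE 0.17) and 0.22 (SE 0.17), and without 2HF117 and 2HF119 these were -0.11 and -0.04. Gcg, the glucagon gene, had 0.35 (SE 0.16), Sst, the somatostatin gene, 0.29 (SE 0.14), and Ppy, the pancreatic polypeptide gene, -0.13 (SE 0.26). All 3 overlapped between the diets, and without 2HF117 and 2HF119 Gcg was 0.16 and Sst 0.13. Of 24 beta cell markers 2 were higher and 3 lower at an unadjusted p under 0.05, beside 4.62% of all genes higher and 4.05% lower. Nkx6-1, a transcription factor of beta cell identity, ranged from 223 to 312 CPM in HFHS islets (median 266), against 328, 349, 304, 313 and 301 CPM in RC islets, and Ero1lb, an oxidase used in proinsulin folding, ranged from 1567 to 1937 CPM in HFHS islets (median 1793), against 2400.2, 2150.4, 2149, 2116 and 2436 CPM in RC islets. Both were below every RC library after TMM scaling, at -0.22 (SE 0.05) and -0.28 (SE 0.07). The beta cell list as a whole had a median of 0.01. With the acinar covariate 1 was higher and 2 lower, beside 2.18% and 1.65% of all genes.

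Of 11 alpha cell markers 3 were higher at that level and 0 lower, with a median of 0.22. Besides Gcg these were the transcription factors Irx1, at 0.33 (SE 0.12), and Irx2, at 0.30 (SE 0.11). With the acinar covariate 2 of the alpha cell markers were higher, and without 2HF117 and 2HF119 1. Of 7 delta and PP cell markers 3 were higher and 0 lower, with a median of 0.24, while 2 were higher with the covariate and 1 without 2HF117 and 2HF119. These shares stand beside 4.62%, 2.18% and 4.87% of all genes in the same 3 fits. The 3 delta and PP cell markers were Rbp4, a retinol carrier, at 0.33 (SE 0.10), the delta cell transcription factor Hhex at 0.24 (SE 0.09) and the peptide gene Pyy at 0.35 (SE 0.13). The summed levels of these lists did not pass their tests. The alpha cell sum was 34019 to 57795 CPM in HFHS islets (median 47093) and 38393, 33747, 39968, 35998 and 46594 CPM in RC islets (exact permutation test, two-sided, p = 0.0866, adjusted p = 0.372). The delta and PP cell sum had an adjusted p of 0.857 in the same exact test.

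Of 18 clock genes 2 were higher and 1 lower at an unadjusted p under 0.05, with a median of -0.06 and 8 above 0, beside 4.62% of all genes higher and 4.05% lower. In the fit with the acinar covariate 3 were higher and 1 lower, beside 2.18% and 1.65% of all genes. Nr1d1, which encodes the repressor REV-ERB alpha, ranged from 40.3 to 49.2 CPM in HFHS islets (median 46.4), against 41.6, 38.7, 40.97, 38.9 and 35.98 CPM in RC islets, and the diets did not overlap after TMM scaling. It had a log2 fold change of 0.27 (SE 0.05, unadjusted p = 0.000174, adjusted p = 0.248). Nr1d2, its relative, had 0.28 (SE 0.09), and Arntl, the activator BMAL1 that REV-ERB proteins repress, had -0.32 (SE 0.10). Times of sampling are not given in the labels.

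In signalling, Adcy1, an adenylyl cyclase activated by calmodulin, ranged from 5.02 to 11.03 CPM in HFHS islets (median 9.55), against 4.73, 6.42, 5.71, 3.97 and 6.003 CPM in RC islets, with a log2 fold change of 0.77 (SE 0.16, unadjusted p = 0.000454, adjusted p = 0.269). Chrna4, a nicotinic acetylcholine receptor subunit, ranged from 8.08 to 15.6 CPM in HFHS islets (median 10.4), against 19.8, 17.05, 18.1, 16.6 and 13.8 CPM in RC islets, with a log2 fold change of -0.58 (SE 0.12, unadjusted p = 0.000317, adjusted p = 0.255). Tgfa, a ligand of the epidermal growth factor receptor, ranged from 16.1 to 30.2 CPM in HFHS islets (median 20.6), against 29.7, 30.8, 28.996, 27.1 and 28.2 CPM in RC islets, with a log2 fold change of -0.41 (SE 0.09, unadjusted p = 0.000667, adjusted p = 0.321). 2HF116 alone stood at the RC level for Tgfa, and without it the log2 fold change was -0.51 (edgeR adjusted p = 0.0151). Stat5b, a transcription factor downstream of growth hormone and prolactin receptors, had -0.22 (SE 0.04), and Elk3, an ETS transcription factor, -0.29 (SE 0.06). Both were lower in every HFHS library than in any RC library after TMM scaling.

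Metabolic genes outside these lists included Gatm, of creatine synthesis, at 0.63 (SE 0.13), or 0.45 with the acinar covariate. Aldh6a1, of valine breakdown, had -0.28 (SE 0.06), and Sult1d1, a sulfotransferase, 0.26 (SE 0.05). All 3 separated the diets after TMM scaling.

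Of 35 cell cycle genes 32 had a log2 fold change above 0, where 7206 of all 14454 genes did, and the median was 0.21. At an unadjusted p under 0.05, 5 were higher and 2 lower, beside 4.62% of all genes higher and 4.05% lower. Under the acinar covariate 4 were higher and 2 lower, beside 2.18% and 1.65% of all genes, with a median of 0.28. Without 2HF117 and 2HF119 1 was higher and 2 lower, beside 4.87% and 3.99% of all genes, and the median was 0.15. Cdc20, an activator of the anaphase-promoting complex, had a log2 fold change of 0.48 (SE 0.16). Cyclin D1, Ccnd1, went the other way: it ranged from 189.6 to 222 CPM in HFHS islets (median 204), against 272, 237, 240.4, 234 and 240.0 CPM in RC islets, with a log2 fold change of -0.19 (SE 0.05, unadjusted p = 0.00146, adjusted p = 0.354), and no HFHS library reached the RC range after TMM scaling. Of 25 genes of oxidative phosphorylation 24 had a log2 fold change above 0 with a median of 0.14, but 1 was higher at that level, and the median was 0.06 with the acinar covariate. Without 2HF117 and 2HF119, 8 of the 25 were above 0 and the median was -0.01. Of 30 genes of ER stress and protein folding 7 were higher and 2 lower, among them Trib3, Chac1 and Ero1lb, already given, and Herpud1, of ER-associated degradation, at 0.42 (SE 0.13). The median of that list was 0.04. With the acinar covariate 4 were higher and 1 lower, and without 2HF117 and 2HF119 4 were higher and 6 lower, with a median of -0.088 and Herpud1 at 0.26. The shares of all genes in each fit, given above, stand beside these counts too.

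In the other lists few members passed the unadjusted level, apart from the acinar markers. Over all genes, 4.62% were higher and 4.05% lower at that level. At an unadjusted p under 0.05, 2 of 25 genes of glycolysis and TCA entry were higher and 3 lower, and of the immediate early genes 0 of 22 were higher and 1 lower. Of 22 interferon genes 1 was higher, and of 14 genes of antigen presentation 0 were. Of 25 genes of cyclic AMP signalling 1 was higher and 2 lower, and in each of 3 other lists, activin and TGF beta signalling, islet neuropeptides and insulin granule exocytosis, 1 was higher and 0 lower. Of 17 genes low in mature beta cells 2 were higher. Of the 25 acinar genes tested, 24 were higher at that level and 0 passed the adjusted threshold. Their median was 1.39, with a range from 0.42 to 3.50. This count depended on the libraries used. Without 2HF117 and 2HF119, 2 of 25 were higher at that level, beside 4.87% of all genes, and all 25 were above 0. Without 2RC103 and 2RC108, 13 of 26 were higher at that level and all 26 were above 0.

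Of the markers of other cell types tested, 2 of 9 duct and 2 of 12 macrophage genes were higher at an unadjusted p under 0.05 and 0 lower. Over all genes, 4.62% were higher and 4.05% lower at that level. Of 12 endothelial genes 1 was higher and 2 lower, and of 13 stellate and fibroblast genes 0 were higher and 1 lower. Of 10 Schwann cell and neuron genes 0 passed that level. Of 2 adipocyte genes with enough reads 1 was higher, Fabp4, and 1 red blood cell gene tested did not pass. Of 9 lymphocyte genes 0 passed that level in either direction. Their median log2 fold change was -0.69, with all 9 below 0, beside the high sums of 2RC103 and 2RC108. Without 2RC103 and 2RC108 the direction turned round: all 9 were above 0, with a median of 1.99, and 7 were higher at that level. In that fit 1082 of all 14627 genes passed that level in either direction.

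Whether the response of DBA/2J differed from that of the other 5 strains at day 10 was tested in 1 fit over 68 libraries and 15777 genes. No gene passed an adjusted p under 0.05 (edgeR's quasi-likelihood test), 1215 genes (7.70%) had an unadjusted p under 0.05, and DESeq2 called 8. Of the 1215, the effect was higher in DBA/2J for 370 (2.35%) and lower for 845 (5.36%). The mean effect of the other strains included 6 of 57 libraries whose counts depended on GC content beyond 0.5 log2 per 10 points. Without those 6, an alternative chosen after seeing the data, 75 of 15817 genes (0.474%) were called, 39 with a higher effect in DBA/2J (0.247%) and 36 with a lower one (0.228%). The results of that fit are given as an alternative and not as the result of the test.

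The log2 fold change of Cpt1a was lower in DBA/2J than in each of the other 5 strains. Its log2 fold change at day 10 was 0.32 (SE 0.11) in DBA/2J, and 0.92 (SE 0.08) in C57Bl/6J, 0.78 (SE 0.12) in BALB/cJ, 0.57 (SE 0.17) in A/J, 0.92 (SE 0.12) in AKR/J and 0.99 (SE 0.10) in 129S2/SvPas. DBA/2J minus the mean of the others was -0.51 (SE 0.13, adjusted p = 0.293), and -0.51 (SE 0.12, adjusted p = 0.0388) without the 6 libraries. Within DBA/2J the effect on Cpt1a was 0.42 (SE 0.14) at day 2, 0.32 (SE 0.11) at day 10, 0.51 (SE 0.08) at day 30 and 0.59 (SE 0.12) at day 90. At day 10 the RC median of Cpt1a was 61.0 CPM in DBA/2J, above the other strains, which ran from 39.2 (AKR/J) to 55.7 CPM (BALB/cJ). Its HFHS median of 76.8 CPM lay within theirs, from 66.6 (A/J) to 94.7 CPM (129S2/SvPas).

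Slc38a5 showed the smallest p among the called genes of the alternative. Its log2 fold change was 0.48 (SE 0.15) in DBA/2J, against 0.18 (SE 0.11) in C57Bl/6J, 0.11 (SE 0.19) in BALB/cJ, -0.74 (SE 0.34) in A/J, -0.64 (SE 0.12) in AKR/J and -0.55 (SE 0.07) in 129S2/SvPas. The difference was 0.81 (SE 0.21, adjusted p = 0.293), and 0.81 (SE 0.14, adjusted p = 0.00652) without the 6 libraries. The difference in that fit was 0.45 (SE 0.10, adjusted p = 0.0221) for Psph, 0.36 (SE 0.08, adjusted p = 0.0347) for Nars and 0.57 (SE 0.11, adjusted p = 0.0173) for Eif4a1. Of the 20 synthetases, 19 had a difference above 0 in that fit, where 7851 of all 15817 genes did. Among them 2 were called, where 0.474% of all genes were, and the median was 0.22, against 0.00 over all genes. The list was put together after the DBA/2J values had been seen. Those values enter the difference, so these counts describe the genes and test nothing.

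For Chac1 and Trib3 the highest effect was in BALB/cJ, whose RC group held 2 of the 6 libraries. Chac1 had log2 fold changes of 0.92 (SE 0.16) in DBA/2J and 1.54 (SE 0.49) in BALB/cJ, and between -0.26 and 0.36 in the other 4 strains. Trib3 had 0.78 (SE 0.13) in DBA/2J and 1.16 (SE 0.42) in BALB/cJ, and between -0.37 and 0.05 in the other 4. The differences from the mean of the other strains were 0.55 (SE 0.51, adjusted p = 0.88) for Chac1 and 0.72 (SE 0.42, adjusted p = 0.721) for Trib3. At day 2 in DBA/2J, from other mice, Chac1 had 0.48 (SE 0.18) and Trib3 0.21 (SE 0.17).

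**Figure D5:**
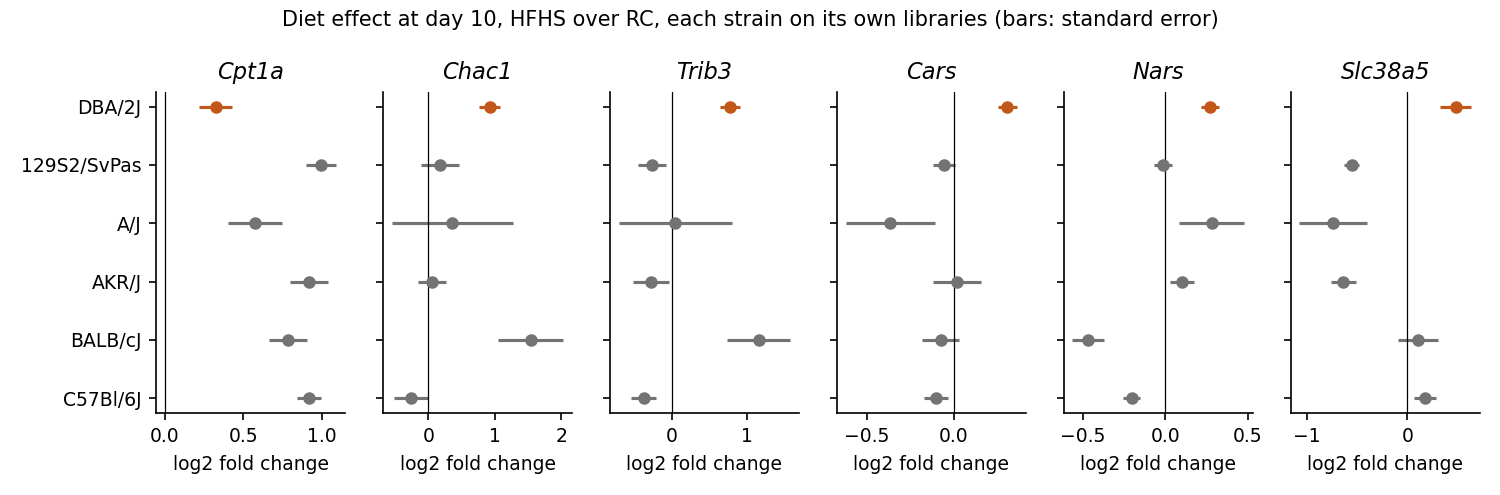
Log2 fold change at day 10, HFHS over RC, with standard errors, of 6 genes in each strain from that strain's own libraries, DBA/2J in orange. DBA/2J has the lowest value for Cpt1a (0.32) and the highest for Cars (0.31) and Slc38a5 (0.48), while BALB/cJ lies above it for Chac1 and Trib3.

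Chst11, which sulfates chondroitin, and Tgfa had differences below 0 in the same alternative, at -0.48 (SE 0.09, adjusted p = 0.00879) and -0.46 (SE 0.10, adjusted p = 0.0266). Tgfa had log2 fold changes between 0.01 and 0.16 in the other 5 strains, and within DBA/2J -0.23 (SE 0.08) at day 2, -0.41 (SE 0.09) at day 10, -0.40 (SE 0.07) at day 30 and -0.35 (SE 0.13) at day 90. Kcna2 had -0.16 (SE 0.15) at day 2, -0.69 (SE 0.12) at day 10, -0.69 (SE 0.12) at day 30 and -0.64 (SE 0.19) at day 90.

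Fitted on the DBA/2J libraries of each time point alone, 2 genes were called on day 2 (0.0137%) and 1 on day 10 (0.00692%). The same fit called 8181 genes on day 30 (56.7%) and 6137 on day 90 (42.9%), where the diets differed in GC dependence.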

How the data were processed

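The build mm9 and the tools edgeR, HTSeq 0.5.3p3, SAMtools 0.1.16 and TopHat 1.3.3 are named in the submitters' processing notes; how reads that fit several places were treated is not given in the sources used here. Libraries were made from 200 ng of RNA with a TruSeq v2 kit, per the labels. The deposited table holds raw read counts of 21382 genes, and a second table deposited by the authors holds normalized log2 values for 14826 genes with a mean count of at least 10, used as an alternative only. The 11 libraries were fitted with edgeR 4.0.16 in R 4.3.3 (filterByExpr, TMM, robust quasi-likelihood test, prior count 2, Benjamini-Hochberg adjustment over all genes tested); the standard error (SE) is the log2 fold change over the square root of F. Differences from the other strains and from day 2 were contrasts in fits of all day 10 libraries and of DBA/2J at days 2 and 10. Summed CPM (counts per 1000000 assigned reads) of marker lists were compared by exact permutation tests. The GC slope is that of a library's log2 deviation on gene GC content, matched by symbol or synonym for all but 1.65% of genes. Alternatives used DESeq2 1.42.0, limma 3.58.1, covariates, other samples and each library left out. Named genes are Rpl7a, the genes called in the difference tests, the members with the smallest p in each list (at most 4), Elovl2, Ins1, Ins2, Gcg, Sst, Ppy, Cpt1a, Pdk4 and Angptl4; Edn3, Nedd9, Kcna2, Chrna4, Gatm, Sult1d1, Elk3, Stat5b, Aldh6a1, Chst11, Tgfa, Eif4a1 and the genes of the 2 amino acid lists were added after their values were seen. The samples and lists were chosen with earlier results of these data known. The edgeR fit was tested on simulated data.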

Additional observations from a re-analysis of the deposited data

Results flagged for a closer look

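Among 178 sets of values of 1 diet group, 15 had 1 library whose gap to its nearest neighbour exceeded Dixon's 95% limit; chance gives about 1 in 20 such sets, and the sets share libraries. In 2HF115 Pdk4 was 127.6 CPM, against 43.8 to 74.6 CPM in the other HFHS libraries. In 2HF116 Tgfa was 30.2 CPM, against 16.1 to 20.6 CPM in the other HFHS libraries. In 2HF117 Nr1d2 was 44.96 CPM and Nars 151.4 CPM, below 64.9 to 72.4 CPM and 164 to 170.5 CPM in the others. In 2HF118 the share of reads assigned to genes was 63.9%, against 66.4% to 67.3% in the others.

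In 2RC103 Scd1 was 38.0 CPM, against 13.4 to 19.1 CPM in the other RC libraries, and Ccnd1 was 272 CPM, against 234 to 240.4 CPM. The summed markers of stellate cells were 1322 CPM and of macrophages 349 CPM in the same library, against 594 to 800.5 CPM and 110.2 to 142.9 CPM in the other RC libraries. In 2RC104 Asns was 129.7 CPM, against 120.6 to 122.99 CPM in the others.

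In 2RC108 the hormone gene Ppy was 1486 CPM, against 3723 to 3972 CPM in the other RC libraries, and Pyy was 608 CPM, against 954 to 983 CPM. The delta and PP cell markers summed to 5293 CPM there, against 7979 to 8637 CPM, and the Schwann cell and neuron markers to 35.1 CPM, against 50.4 to 55.1 CPM. Slc38a5 was 20.2 CPM in that library, against 13.95 to 15.01 CPM in the others.

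The diet effect on Rpl7a differed between time points: day 10 minus day 2 was -1.90 on the log2 scale (edgeR adjusted p = 0.000733), with 6 of 6 HFHS libraries below every RC library at day 10.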

How the results depend on the processing

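The day 10 diet effect called 1 gene; DESeq2's Wald test called 68, limma voom with sample weights 2, the acinar covariate 2, the spread of all libraries of the series 0 and that of all day 10 libraries 0. Without 2HF117 and 2HF119 2 were called, without 2HF117, 2HF119 and 2RC103 0, without 2RC103 and 2RC108 0, and with 1 library left out 0 (2RC108) to 2 (2HF116 or 2HF118). At an unadjusted p under 0.05, 365 genes passed over all libraries of the series, 567 over all day 10 libraries, 1471 without 2HF117, 2HF119 and 2RC103, 1082 without 2RC103 and 2RC108 and 1155 without 2RC108; with any 1 library left out the number ran from 790 (2RC104) to 1707 (2HF118), against 1253 over all 11. Against the other strains 0 were called, and 8 with DESeq2, 2 with a GC curve as offset and 75 without the 6 libraries beyond the GC bound. Against day 2, 1 was called, and 2 with DESeq2 and 3 over all libraries. Some signs turned round, none of them for a called gene. With 1 library left out, the log2 difference in marker sums ran from -0.056 to 0.038 (adipocyte), -0.56 to 0.41 (lymphocyte), -0.19 to 0.10 (stellate) and -0.051 to 0.16 (delta and PP), and without 2HF117 and 2HF119 it was -0.046 (beta), -0.034 (macrophage) and 0.010 (adipocyte). Ins1 was -0.033 with the GC slope as covariate, -0.042 with voom, -0.17 without 2HF117, 2HF119 and 2RC103 and -0.11 without 2HF117 and 2HF119. Ins2 was -0.10 and -0.043 in the same 2 left-out fits. Ppy was 0.047 with voom and 0.053 and 0.026 in those fits. With 1 library left out, Ppy ran from -0.32 to 0.0037 and Elovl2 from -0.00026 to 0.064. The cause was not tested. Of the other values for named genes, 1935 kept their direction and side of the threshold, 43 passed it and 6 lost it. No paired analysis was possible because the HFHS and RC mice share no numbers. Genes of low level rest on fewer reads per library, such as Rpl7a, at 3.14 to 11.7 CPM, and Trib3, at 4.04 to 9.54 CPM. This holds more for Cth, at 0.48 to 1.46 CPM over the 11 libraries, and Angptl4, at 0.74 to 4.43 CPM.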
